A study of Mus musculus with 19 samples.

Results

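The genes described here are 34 members of the p53 pathway and of the mitochondrial pathway of apoptosis, chosen by name out of the 22419 genes in the RNA-seq tables. They comprise p53 (Trp53) and its relatives Trp63 and Trp73, the p53 inhibitors Mdm2 and Mdm4, 14 genes grouped here as targets that p53 activates, the BCL2 family with its BH3-only members, and the proteins that start or hold back caspases. The other groups also hold p53 targets, such as Bbc3 and Pmaip1. All 34 were listed in every RNA-seq library. Of these, 28 exceeded 1 TPM (a relative transcript level, corrected for transcript length and library size) in at least 1 of the 7 libraries and were tested. The other 6 stayed at or below 1 TPM in all libraries and were not tested: Trp63, Trp73, Zmat3, Eda2r, Fas and Bcl2.

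RNA was taken from preleptotene spermatocytes, the male germ cells that enter meiosis, sorted from C57BL/6 testes. Spermatogenesis was synchronized with WIN18,446, an inhibitor of retinoic acid synthesis, from postnatal day 2 to 8 and retinoic acid on day 9, and testes were collected about 6.75 days later. There were 3 libraries of cells homozygous for the Stra8-deficient allele and 2 each of heterozygous cells with low and with high STRA8, the factor that retinoic acid induces at meiotic initiation. All RNA-seq mice also carried Ddx4-Cre and a Rosa26-tdTomato reporter, so the sort selected the germ cell lineage. The heterozygous groups were set apart by their STRA8 levels. Low-STRA8 cells were therefore early and high-STRA8 cells mid to late preleptotene, and stage and STRA8 level cannot be told apart between them. No wild-type cells were in the RNA-seq. STRA8 binding was measured by ChIP-seq with a FLAG antibody in unsorted synchronized testes of 3 Stra8 FLAG/FLAG mice, whose STRA8 carries the tag, and of 3 wild-type mice as controls, all C57BL/6 with less than 4% 129.

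p53 is a transcription factor held at a low level by MDM2, a ubiquitin ligase, and by its partner MDM4. DNA damage frees it to activate genes that halt the cell cycle, aid repair or kill the cell. Death by this route is decided at the mitochondrion. BH3-only proteins such as PUMA and NOXA release BAX and BAK from survival proteins such as BCL-XL and MCL1, cytochrome c escapes, and APAF1 assembles it with caspase 9. In the testis, this pathway is known to remove surplus germ cells in the first wave of spermatogenesis. Preleptotene cells replicate their DNA before the programmed breaks of meiosis, and how these genes stand at that time is the question of the comparisons below.

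Stra8 itself was at 5.16 to 22.8 TPM in the Stra8-deficient libraries, 236 and 315 TPM in the low-STRA8 libraries and 1099 and 1248 TPM in the high-STRA8 libraries, in the order of the labels. The libraries held 25049625 to 30015072 estimated counts. The germ cell genes Ddx4 (148 to 213 TPM) and Dazl (1058 to 2057 TPM) were high in every library. Of 18 Sertoli cell markers, 17 exceeded 1 TPM somewhere, and their summed level was 273 TPM in low-STRA8 replicate 2 against 781 to 1160 TPM in the other libraries. Markers of undifferentiated spermatogonia (9 of 15 above 1 TPM in any library) summed to 80.9 to 97.7 TPM in Stra8-deficient, 36.7 and 42.2 TPM in low-STRA8 and 42.1 and 45.6 TPM in high-STRA8 cells. Macrophage and blood markers (14 of 15 above 1 TPM in any library) summed to 12.1 to 50.3 TPM in Stra8-deficient, 55 and 57.3 TPM in low-STRA8 and 2.98 and 10.2 TPM in high-STRA8 cells. All 14 exceeded 1 TPM in Stra8-deficient replicate 3, against 4 and 3 in replicates 1 and 2. In the low-STRA8 libraries 4 and 4 did so, and in the high-STRA8 libraries 0 and 3. The paper calls the RNA samples biological replicates. Nothing in the labels says that they came from separate mice, so the p-values measure the spread between these samples. The 2 high-STRA8 libraries differed less from each other (chi-square per degree of freedom 9.16) than pairs within the other groups (27.6 to 37.8). The 3 groups were fitted together.

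In high-STRA8 cells, 13 of the 28 tested members were lower than in Stra8-deficient cells and 4 were higher (edgeR quasi-likelihood test, adjusted p under 0.05). That is 46.4% lower and 14.3% higher, where 18.2% of all 12529 tested genes were called lower and 18.8% higher. The lower genes were Trp53, 6 of the 14 genes grouped as its targets (Ccng1, Gadd45a, Btg2, Phlda3, Perp and Tnfrsf10b), the pore former Bax, the BH3-only genes Bbc3, Pmaip1, Bid and Bad, and Casp9. Of the 14, Zmat3, Eda2r and Fas were not tested. The higher genes were the p53 targets Cdkn1a and Sesn1, the survival gene Bcl2l1 and the caspase activator Apaf1. The share of all calls that were higher was 50.8% here and 40.5% on the log2(TPM + 1) scale, where the members had the same 4 higher and 13 lower. The median log2 difference was -0.27 over the 28 members and -0.02 over all tested genes. In such sorted cells, fewer cells of a type and less RNA per cell cannot be told apart. The members were chosen by name, with earlier results of these data known, and no test was made of the list as a whole. The count of lower members was 6 without high-STRA8 replicate 1 and 4 without high-STRA8 replicate 2, when all genes called lower dropped to 1012 and 727 from 2285; the higher members were then 2. Trp53, Ccng1, Sesn1, Btg2, Bcl2l1 and Casp9 were called with any 1 library left out. Without either high-STRA8 library, Cdkn1a, Apaf1, Gadd45a, Phlda3, Perp, Tnfrsf10b, Bbc3, Pmaip1 and Bid were not called, and without replicate 2 neither were Bax and Bad. The summed markers of undifferentiated spermatogonia and of macrophages and blood were also higher in each Stra8-deficient library than in the high-STRA8 libraries. So were those of Leydig cells (27.9 to 35 against 21.8 and 22.2 TPM) and of peritubular and endothelial cells (98.6 to 113 against 73.9 and 98.4 TPM). Sertoli cell markers overlapped, at 781 to 1106 against 1064 and 1125 TPM. The part of such cells in these differences was not tested.

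**Figure D1:**
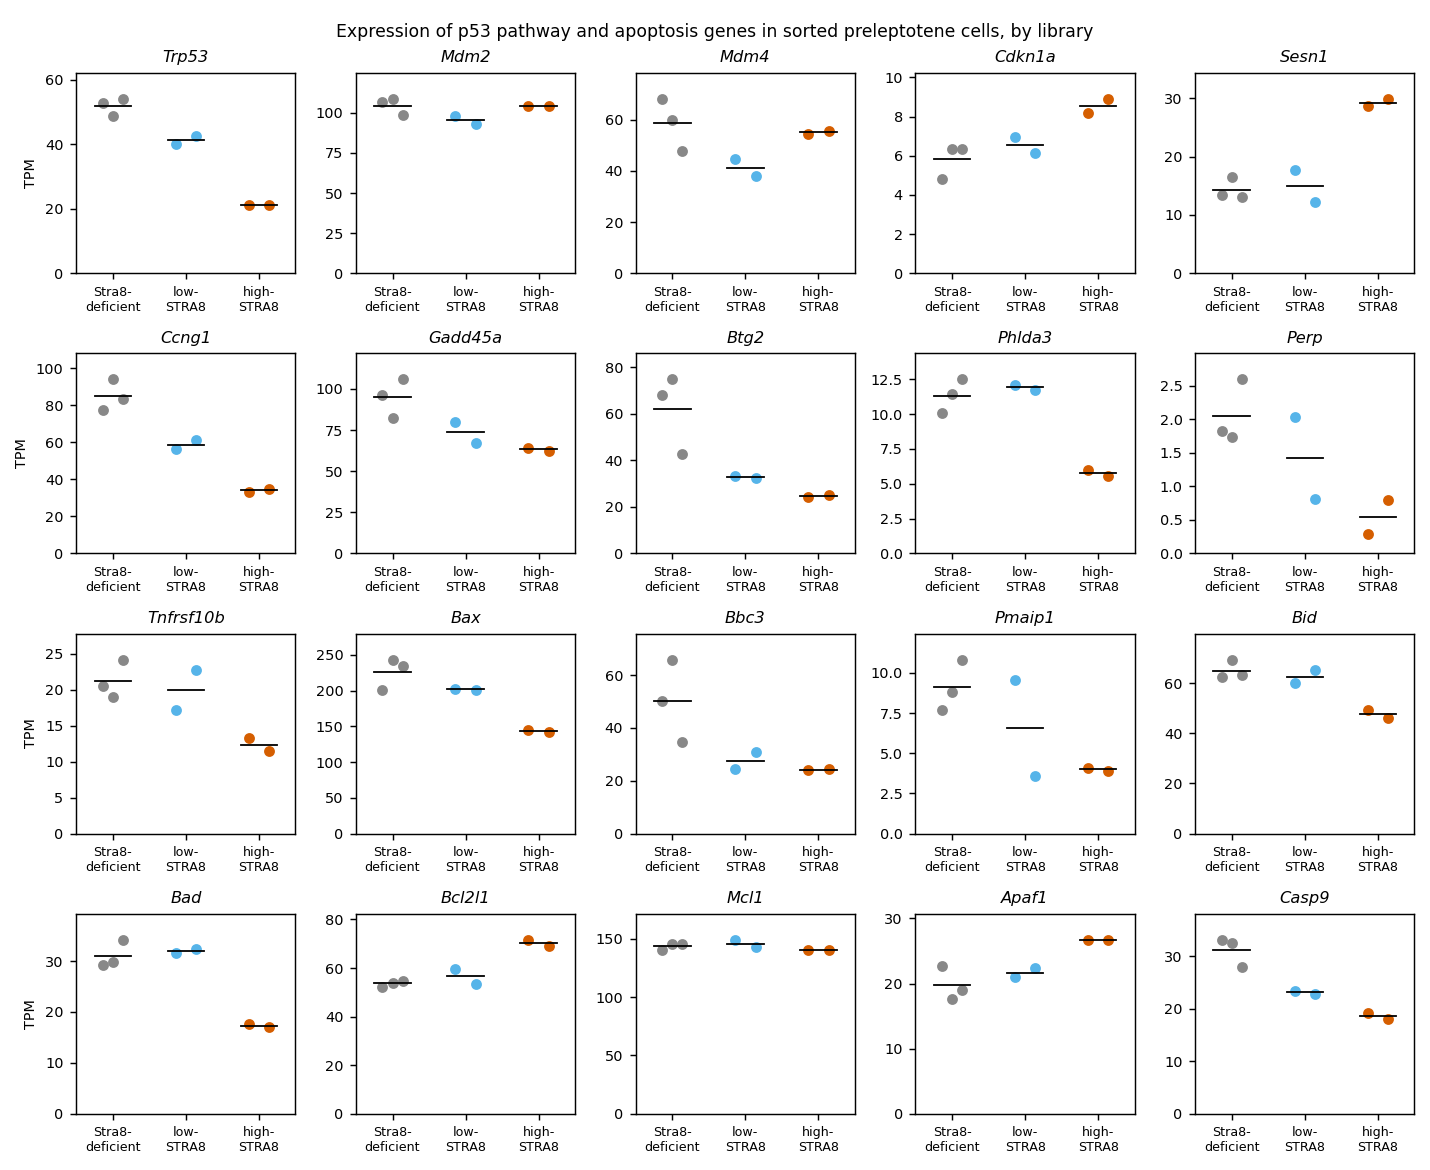
Level (TPM, linear axes from 0) of 20 members in each RNA-seq library; points are libraries (3 Stra8-deficient, 2 low-STRA8, 2 high-STRA8) and bars are group means. The high-STRA8 libraries lie below all Stra8-deficient libraries for Trp53, Bax and Bad and above them for Sesn1, Bcl2l1 and Apaf1, while Mdm2 and Mcl1 lie close together in all 3 groups.

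Trp53 (chr11:69580359-69591873, plus strand, mm10) was at 52.8, 48.8 and 54.0 TPM in the Stra8-deficient libraries, 40.2 and 42.7 TPM in the low-STRA8 libraries and 21.1 and 21.3 TPM in the high-STRA8 libraries. The high-STRA8 libraries lay below all others. Trp53 was 2.31-fold lower in high-STRA8 cells than in Stra8-deficient ones (log2 difference -1.21 ± 0.12 SE, edgeR adjusted p = 0.00022) and 2.11-fold lower than in low-STRA8 cells (log2 -1.08 ± 0.13, adjusted p = 0.000964). Between low-STRA8 and Stra8-deficient cells the log2 difference was -0.13 ± 0.11 (adjusted p = 0.448). Transcripts Trp53-201 and Trp53-203, of 1772 and 1771 bases, took 18.7% to 86.4% and 4.59% to 72.3% of the gene's TPM in single libraries, with no order by group, so the transcripts are not given apart. The relatives were almost silent. Trp63 reached at most 0.111 TPM, all of it from the downstream start that gives the short amino terminus, and Trp73 at most 0.317 TPM.

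Mdm2 and Mdm4, which restrain p53, did not pass the test in any of the 3 comparisons. Mdm2 (chr10:117688875-117710758, minus strand) was at 107, 108 and 98.4 TPM in Stra8-deficient, 98.1 and 93.0 TPM in low-STRA8 and 104 and 104 TPM in high-STRA8 cells. The Stra8-deficient and high-STRA8 libraries overlapped. Its log2 difference was 0.07 ± 0.08 between high-STRA8 and Stra8-deficient cells (edgeR adjusted p = 0.51) and 0.02 ± 0.09 between high- and low-STRA8 cells (adjusted p = 0.883). Mdm4 was at 67.9, 59.9 and 47.8 TPM in Stra8-deficient, 44.4 and 37.9 TPM in low-STRA8 and 54.4 and 55.6 TPM in high-STRA8 cells. It was above the low-STRA8 libraries in both high-STRA8 libraries, with a log2 difference of 0.40 ± 0.17 that missed the threshold (adjusted p = 0.0907). Long transcripts were higher throughout the data in this comparison (below). The longest of 4 length classes, which holds Mdm4, had a median log2 difference of 0.37, and Mdm4 lay 0.04 above that median. As TPM, Mdm2 stood at 2.02 ± 0.199 times the level of Trp53 in Stra8-deficient (SD, n = 3), 2.31 ± 0.182 times in low-STRA8 (n = 2) and 4.91 ± 0.0277 times in high-STRA8 cells (n = 2).

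The p53 targets divide by role. Of the 8 that halt the cell cycle or answer stress, 7 were tested. In high-STRA8 against Stra8-deficient cells 3 were lower, 2 were higher and 2 did not pass. Among all tested genes, 18.2% were called lower and 18.8% higher. Cdkn1a (chr17:29090979-29100722, plus strand) encodes p21, the cyclin-dependent kinase inhibitor through which p53 arrests the cell cycle. It was at 4.79, 6.33 and 6.37 TPM in Stra8-deficient, 6.94 and 6.14 TPM in low-STRA8 and 8.20 and 8.89 TPM in high-STRA8 cells. The level was low in all groups, and the high-STRA8 libraries were the highest. Cdkn1a was 1.59-fold higher in high-STRA8 cells than in Stra8-deficient ones (log2 0.67 ± 0.21, edgeR adjusted p = 0.0337), and the log2 difference of 0.38 ± 0.23 from low-STRA8 cells did not pass (adjusted p = 0.22). The first call was also lost without Stra8-deficient replicate 1 or 2.

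Ccng1 (chr11:40748552-40755311, minus strand), which encodes cyclin G1 and is a p53 target in many tissues, went the other way. Its levels were 77.7, 94.0 and 83.6 TPM in Stra8-deficient, 56.3 and 61.3 TPM in low-STRA8 and 33.1 and 35 TPM in high-STRA8 cells, and the groups did not overlap. It was 2.38-fold lower in high-STRA8 cells than in Stra8-deficient ones (log2 -1.25 ± 0.12, edgeR adjusted p = 0.000213) and 1.87-fold lower than in low-STRA8 cells (log2 -0.91 ± 0.13, adjusted p = 0.00181). Sesn1 (chr10:41809935-41908424, plus strand), a sestrin that restrains the growth kinase mTORC1, was at 13.4, 16.4 and 13.1 TPM in Stra8-deficient, 17.8 and 12.2 TPM in low-STRA8 and 28.7 and 29.8 TPM in high-STRA8 cells. Both high-STRA8 libraries exceeded all others. It was the member with the greatest increase, 2.09-fold over Stra8-deficient (log2 1.06 ± 0.18, adjusted p = 0.00219) and 1.84-fold over low-STRA8 cells (log2 0.88 ± 0.20, adjusted p = 0.00926), and the latter was not called without high-STRA8 replicate 2 (adjusted p = 0.0631). Its relative Sesn2 was at 35.4 and 35.8 TPM in high-STRA8 cells and 12.8 to 31.4 TPM elsewhere, and did not pass (adjusted p = 0.125 and 0.203).

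Btg2, an antiproliferative factor that promotes mRNA deadenylation, was at 68.1, 74.7 and 42.7 TPM in Stra8-deficient, 33.4 and 32.2 TPM in low-STRA8 and 24.1 and 25.2 TPM in high-STRA8 cells. It was 2.35-fold lower in high-STRA8 cells than in Stra8-deficient ones (log2 -1.23 ± 0.20, edgeR adjusted p = 0.00224). Btg2 was also the member called between low-STRA8 and Stra8-deficient cells (below). Gadd45a, a stress gene linked to repair and checkpoint kinases, was at 96.4, 82.3 and 106 TPM, then 80.2 and 67 TPM, then 64.2 and 62.3 TPM in the same order of groups, a 1.33-fold decrease from Stra8-deficient to high-STRA8 cells (log2 -0.41 ± 0.12, adjusted p = 0.0325), which was also lost without Stra8-deficient replicate 1 or 3. Trp53inp1, which promotes p53-dependent death, was spread within its group, with 155, 106 and 73.3 TPM in the Stra8-deficient libraries. It was at 74.8 and 67.2 TPM in low-STRA8 and 126 and 125 TPM in high-STRA8 cells, and the difference between these groups missed the threshold (log2 0.73 ± 0.26, adjusted p = 0.057). That difference was 0.36 above the median of the longest length class, to which Trp53inp1 belongs. Zmat3 stayed at 0.329 to 0.745 TPM.

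Of the 6 genes grouped as p53 targets that promote death, 4 were tested, and 3 were lower in high-STRA8 cells than in Stra8-deficient ones. The share of all tested genes called lower was 18.2%. Phlda3, a repressor of the survival kinase AKT, was at 10.1, 11.4 and 12.5 TPM in Stra8-deficient, 12.1 and 11.8 TPM in low-STRA8 and 6.00 and 5.57 TPM in high-STRA8 cells. It was 1.86-fold below Stra8-deficient (log2 -0.90 ± 0.20, edgeR adjusted p = 0.0094) and 2.26-fold below low-STRA8 cells (log2 -1.18 ± 0.22, adjusted p = 0.00458). Tnfrsf10b, the mouse receptor of the death ligand TRAIL, was at 20.6, 19 and 24.2 TPM, then 17.2 and 22.8 TPM, then 13.3 and 11.4 TPM. It was 1.63-fold and 1.76-fold lower in high-STRA8 cells than in the Stra8-deficient and the low-STRA8 ones (adjusted p = 0.0197 and 0.015). Perp, a membrane protein of p53-dependent death, was low throughout, at 1.82, 1.74 and 2.59 TPM in Stra8-deficient, 2.03 and 0.805 TPM in low-STRA8 and 0.282 and 0.790 TPM in high-STRA8 cells. Its log2 difference of -1.87 ± 0.60 from Stra8-deficient cells had the widest error of the called members (adjusted p = 0.0383), and was lost with any 1 Stra8-deficient library left out. Tnfrsf10b was lost against Stra8-deficient cells without their replicate 3, and against low-STRA8 cells without their replicate 2. Aen, a nuclease that acts in apoptosis, was at 57.6 to 98.2 TPM and was not called. The receptor genes Eda2r and Fas were low, with Eda2r at 0.112 to 0.849 TPM and Fas at or below 0.255 TPM. Fas was listed at 0 in both high-STRA8 libraries and in low-STRA8 replicate 2.

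The p53 response element is made of 2 half-sites of 10 bases. Abutting half-sites with the C and G of each core intact and at most 2 other mismatches were found within 1 kb of a TSS (transcription start site) in 6 of the 34 members, which were Trp73, Cdkn1a, Ccng1, Eda2r, Bax and Pmaip1. By comparison, 2.29% of tested genes and 2.23% of all 21618 protein-coding genes held such a match. The members include genes picked as p53 targets, so the share is a description of that choice. The sequences are shown for Cdkn1a and Ccng1, the expressed members with the closest matches, and for Bax, beside the levels of these genes. They are matches of letters and not measured p53 binding. Each is on its gene's strand, with capitals for bases that match and lower case for mismatches (RefSeq genome GRCm38.p6).
Cdkn1a, chr17:29090928-29090947, -42 bp from its first annotated TSS, negative being upstream: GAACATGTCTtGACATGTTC
Ccng1, chr11:40755462-40755481, -161 bp from its TSS: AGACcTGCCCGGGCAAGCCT
Ccng1, chr11:40754936-40754955, 365 bp from its TSS: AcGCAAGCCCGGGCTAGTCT
Bax, chr7:45466574-45466593, 252 bp from its TSS: GGGCAgGCCCGGGCTTGTCg
The Cdkn1a and Ccng1 matches had 1 mismatch each, and the Bax match had 2. Of these genes, Cdkn1a rose and Ccng1 and Bax fell from Stra8-deficient to high-STRA8 cells, so that members with such a match went in both directions.

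Bax (chr7:45461697-45466898, minus strand), which opens the outer mitochondrial membrane, was the most abundant of the BCL2 family members. It was at 201, 243 and 235 TPM in Stra8-deficient, 203 and 200 TPM in low-STRA8 and 145 and 142 TPM in high-STRA8 cells, and the high-STRA8 libraries lay below all others. Bax was 1.54-fold lower than in Stra8-deficient (log2 -0.62 ± 0.13, edgeR adjusted p = 0.00663) and 1.6-fold lower than in low-STRA8 cells (log2 -0.68 ± 0.14, adjusted p = 0.00696). Neither was called without high-STRA8 replicate 2 (adjusted p = 0.0819 and 0.0695). The other pore former, Bak1, was far lower, at 1.72 to 2.57 TPM in Stra8-deficient, 4.54 and 1.07 TPM in low-STRA8 and 2.17 and 2.63 TPM in high-STRA8 cells, and was not called in any comparison.

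BH3-only genes, whose products set off the pore formers, were lower in high-STRA8 cells than in Stra8-deficient ones for 4 of 5. Among all tested genes, 18.2% were called lower. The remaining BH3-only gene, Bcl2l11, did not pass (log2 -0.51 ± 0.27, edgeR adjusted p = 0.17). Bad was at 29.2, 29.8 and 34.2 TPM in Stra8-deficient, 31.6 and 32.3 TPM in low-STRA8 and 17.6 and 17.0 TPM in high-STRA8 cells. It was 1.73-fold below Stra8-deficient (log2 -0.79 ± 0.16, adjusted p = 0.00589) and 2.03-fold below low-STRA8 cells (log2 -1.02 ± 0.17, adjusted p = 0.00332). Bid, which caspase 8 cleaves to link death receptors to mitochondria, was at 62.5, 69.5 and 63.2 TPM, then 60.2 and 65.2 TPM, then 49.4 and 46.2 TPM. It was 1.29-fold and 1.43-fold lower in high-STRA8 cells than in the Stra8-deficient and the low-STRA8 ones (adjusted p = 0.0279 and 0.0103). Bid was also lost against Stra8-deficient cells without their replicate 2 or 3, and against low-STRA8 cells without their replicate 2. For both genes the Stra8-deficient and low-STRA8 libraries overlapped and the high-STRA8 libraries lay below them.

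Bbc3 and Pmaip1, which encode PUMA and NOXA and are themselves p53 targets, had wider spreads. Bbc3 was at 50.04, 65.8 and 34.8 TPM in Stra8-deficient, 24.3 and 30.8 TPM in low-STRA8 and 24 and 24.5 TPM in high-STRA8 cells. It was 1.96-fold lower in high-STRA8 cells than in Stra8-deficient ones (log2 -0.97 ± 0.24, edgeR adjusted p = 0.014), and it overlapped between high- and low-STRA8 cells (log2 -0.33 ± 0.26, adjusted p = 0.34). Pmaip1 was at 7.71, 8.80 and 10.8 TPM, then 9.58 and 3.6 TPM, then 4.09 and 3.91 TPM, with a log2 difference of -1.12 ± 0.38 between high-STRA8 and Stra8-deficient cells (adjusted p = 0.0482). Pmaip1 was near the threshold and was lost when any one of the Stra8-deficient or high-STRA8 libraries was left out. The 2 low-STRA8 libraries differed for Pmaip1, as for Bak1, Casp8 (5.07 and 1.42 TPM), Sesn2 and Perp, all higher in replicate 1. That library had a summed level of Sertoli markers of 1160 TPM against 273 TPM in replicate 2, and the part of other cells in these values was not tested. Bcl2l11, which encodes BIM, was at 23.1, 20.7 and 11.3 TPM in Stra8-deficient cells and 9.43 to 14.4 TPM in the others.

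Of the survival genes, 1 of the 2 tested was higher in high-STRA8 cells than in Stra8-deficient ones and 0 were lower. Among all tested genes, 18.8% were called higher and 18.2% lower. Bcl2l1 (chr2:152780668-152831728, minus strand), which encodes BCL-XL, was at 52.3, 53.8 and 54.8 TPM in Stra8-deficient, 59.6 and 53.5 TPM in low-STRA8 and 71.6 and 68.9 TPM in high-STRA8 cells. It was 1.41-fold higher in high-STRA8 cells than in Stra8-deficient ones (log2 0.49 ± 0.09, edgeR adjusted p = 0.00347), and its difference from low-STRA8 cells did not pass (log2 0.22 ± 0.10, adjusted p = 0.109). Mcl1 was at 141, 146 and 146 TPM, then 149 and 143 TPM, then 140 and 140 TPM, with a log2 difference of 0.01 ± 0.08 between high-STRA8 and Stra8-deficient cells (adjusted p = 0.952). Bcl2 was at 0.201 to 0.416 TPM. Set against Bax in the same library, Bcl2l1 stood at 0.238 ± 0.0203 times its TPM in Stra8-deficient (SD, n = 3), 0.28 ± 0.0189 times in low-STRA8 (n = 2) and 0.488 ± 0.00669 times in high-STRA8 cells (n = 2). The same ratio for Mcl1 was 0.64 ± 0.054, 0.723 ± 0.0166 and 0.974 ± 0.0122 in that order. Neither ratio overlapped between high-STRA8 cells and the other groups, and mRNA levels do not give the proteins' levels.

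Of the 5 genes that act on caspases, 1 rose and 1 fell in high-STRA8 against Stra8-deficient cells. The shares of all tested genes were 18.8% higher and 18.2% lower. Apaf1, the scaffold of the apoptosome, was at 22.8, 17.6 and 18.9 TPM in Stra8-deficient, 20.9 and 22.4 TPM in low-STRA8 and 26.7 and 26.6 TPM in high-STRA8 cells. It was 1.42-fold higher in high-STRA8 cells than in Stra8-deficient ones (log2 0.50 ± 0.12, edgeR adjusted p = 0.0131). Casp9, the caspase that the apoptosome activates, was at 33.2, 32.6 and 28 TPM, then 23.5 and 22.8 TPM, then 19.3 and 18 TPM, and the 3 groups did not overlap. It was 1.57-fold lower in high-STRA8 cells than in Stra8-deficient ones (log2 -0.65 ± 0.10, adjusted p = 0.00181) and 1.33-fold lower than in low-STRA8 cells (log2 -0.41 ± 0.11, adjusted p = 0.0193), the latter lost without low-STRA8 replicate 2 or either high-STRA8 library. Casp8, the initiator at death receptors, was at 1.42 to 5.07 TPM. Xiap, an inhibitor of caspases, was at 43.3 to 72.4 TPM and Diablo, the mitochondrial protein that counters it, was the most abundant member at 387 to 506 TPM. Casp8, Xiap and Diablo were not called in any comparison.

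**Figure D2:**
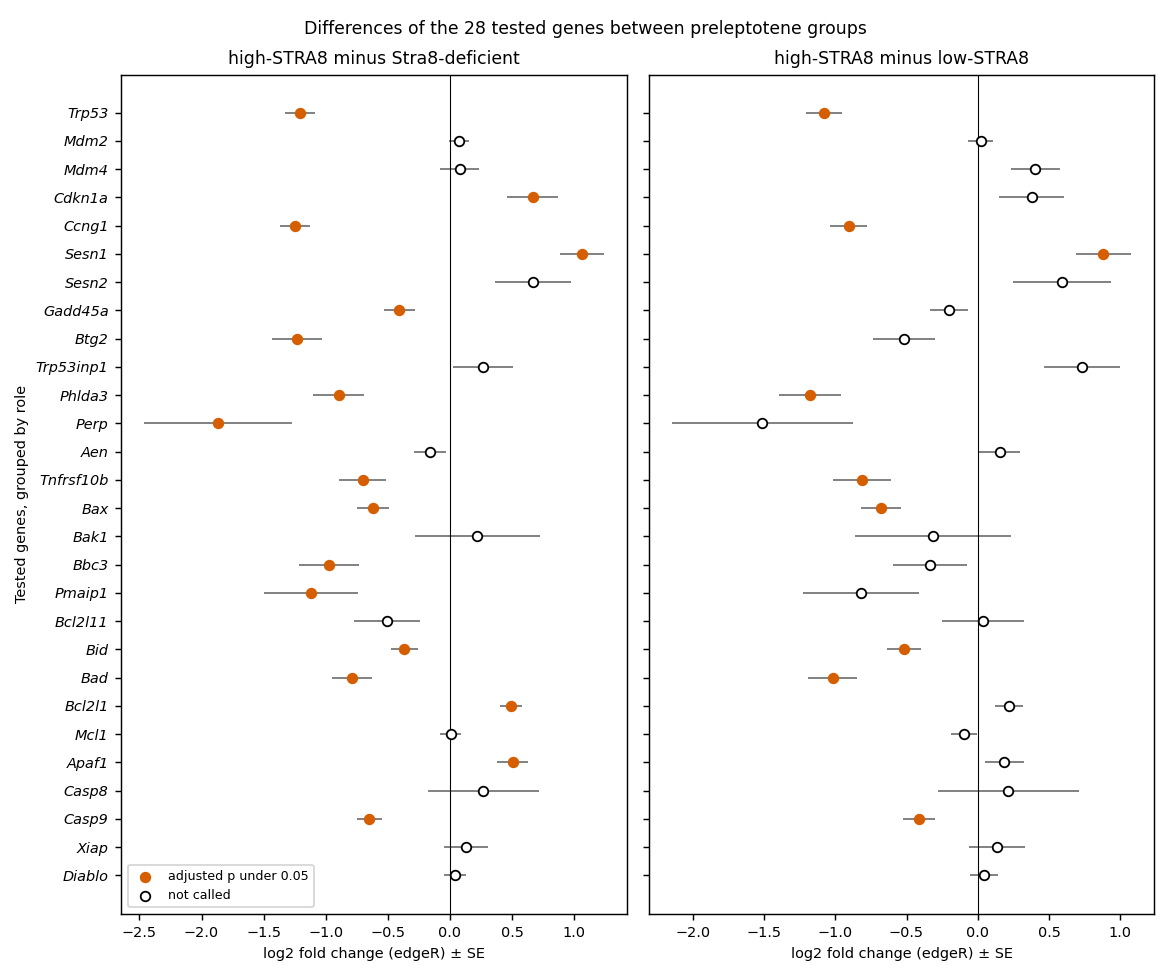
Difference of each of the 28 tested members (log2 fold change from edgeR, with the standard error as bars) of high-STRA8 from Stra8-deficient cells (left) and from low-STRA8 cells (right); filled points passed the test and open points did not. Trp53, Ccng1, Phlda3, Tnfrsf10b, Bax, Bid, Bad and Casp9 lie below 0 and pass on both sides, and Sesn1 is the gene that passes above 0 on both.

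Between high-STRA8 and low-STRA8 cells, which share the heterozygous genotype, 8 of the 28 members were lower and 1 was higher, or 28.6% and 3.57%, where 18.3% of all tested genes were called lower and 21.4% higher. The 8 lower genes were Trp53, Ccng1, Phlda3, Tnfrsf10b, Bax, Bid, Bad and Casp9, and the higher gene was Sesn1. All were also called against Stra8-deficient cells, and the comparisons share the high-STRA8 libraries. Trp53, Ccng1 and Bad were called with any 1 library left out. Without high-STRA8 replicate 2, 3 members were lower and 0 higher, when all genes called lower dropped to 484 from 2289. In this comparison short transcripts were lower and long ones higher throughout the data: the median log2 difference was -0.30 in the shortest of 4 equal length classes of genes (up to 1500 bp of effective length) and 0.37 in the longest (from 3935 bp). The 8 lower members had effective lengths of 788 to 4243 bp. Each lay below the median of its own length class, at -1.09 to -0.38 from it on the log2 scale. Bax was the nearest and Phlda3 the farthest. These members were picked because they were called lower, so their place below these medians follows largely from that choice. With each gene's effective length in the fit as an offset, 1 member was higher and 8 were lower, and all 9 calls were shared with those above. The summed macrophage and blood markers also dropped, from 55 and 57.3 TPM in low-STRA8 to 2.98 and 10.2 TPM in high-STRA8 cells, and their part in these differences was not tested. Of these 15 markers, 4 exceeded 1 TPM in each low-STRA8 library.

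Low-STRA8 cells, early in the preleptotene stage, differed from Stra8-deficient cells in 1 called member. Of 28 members, 1 was lower and 0 were higher (edgeR), against 13.9% and 10.1% of all tested genes. The gene was Btg2, 1.64-fold lower in low-STRA8 cells (log2 -0.71 ± 0.20, adjusted p = 0.0338), and it was not called when any 1 of 6 of the 7 libraries was left out (all but Stra8-deficient replicate 3). At an unadjusted p under 0.05, where edgeR had 20% of all tested genes lower and 17.8% higher, 5 members were lower, which were Btg2, Ccng1 (log2 -0.34 ± 0.12), Bbc3 (log2 -0.64 ± 0.24), Casp9 (log2 -0.24 ± 0.10) and Aen (log2 -0.31 ± 0.13), and 2 higher, Bcl2l1 (log2 0.27 ± 0.09) and Apaf1 (log2 0.32 ± 0.12). In this comparison long transcripts were lower and short ones higher. The median log2 difference was -0.32 in the longest length class and 0.25 in the shortest. Casp9 and Apaf1 are in the longest class and lay 0.08 and 0.64 above its median. Btg2, Ccng1, Bbc3 and Aen lay below the medians of their classes, and Bcl2l1 lay above. DESeq2 called 2 lower and 1 higher, against 1935 and 1495 of all 12529 tested genes. Without Stra8-deficient replicate 3, 5 members were lower and 1 was higher, against 1692 and 1429 of all tested genes. That library had the lowest Trp53inp1, Xiap, Btg2, Bbc3 and Bcl2l11 of its group, and its macrophage and blood markers summed to 50.3 TPM against 12.1 and 20.3 TPM in the other Stra8-deficient libraries. The markers of undifferentiated spermatogonia, at 80.9 to 97.7 TPM in Stra8-deficient cells, were at 36.7 and 42.2 TPM in low-STRA8 cells. The part of such cells was not tested. On the log2(TPM + 1) scale 7 members were lower and 0 higher, as were 2707 and 498 of all 12529 tested genes. The median log2 difference of all genes between these groups was then -0.15, against 0.03 in edgeR. The share of all calls that were higher was 42.2% in edgeR and 15.5% on the log2(TPM + 1) scale.

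Several members are read from more than 1 start. Sesn1 has a start at chr10:41809935 (transcript Sesn1-202) and another at chr10:41887439 (Sesn1-201). Sesn1-201 was at 7.36, 9.01 and 9.16 TPM in Stra8-deficient, 12 and 8.78 TPM in low-STRA8 and 19.6 and 19 TPM in high-STRA8 cells, and Sesn1-202 at 6.06, 7.40 and 3.95 TPM, then 5.76 and 3.43 TPM, then 9.10 and 10.9 TPM. Both starts were thus highest in the high-STRA8 libraries. Bcl2l1 was read mostly from the start at chr2:152830666 (Bcl2l1-202), which took 60.7% to 89.1% of its TPM, and that transcript was at 33.3 to 40.03 TPM in Stra8-deficient, 44.8 and 39.3 TPM in low-STRA8 and 54.4 and 61.4 TPM in high-STRA8 cells. The start at chr2:152831728 (Bcl2l1-201) gave 7.36 to 21.5 TPM with overlapping groups. Bad was lowest in the high-STRA8 libraries at both of its starts. Cdkn1a was read mainly from the start at chr17:29093769 (70.1% to 85.8% of its TPM) and was at 0 TPM from the first annotated start, next to the p53 match shown above. These shares come from kallisto's division of reads between transcripts and have no test.

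**Figure D3:**
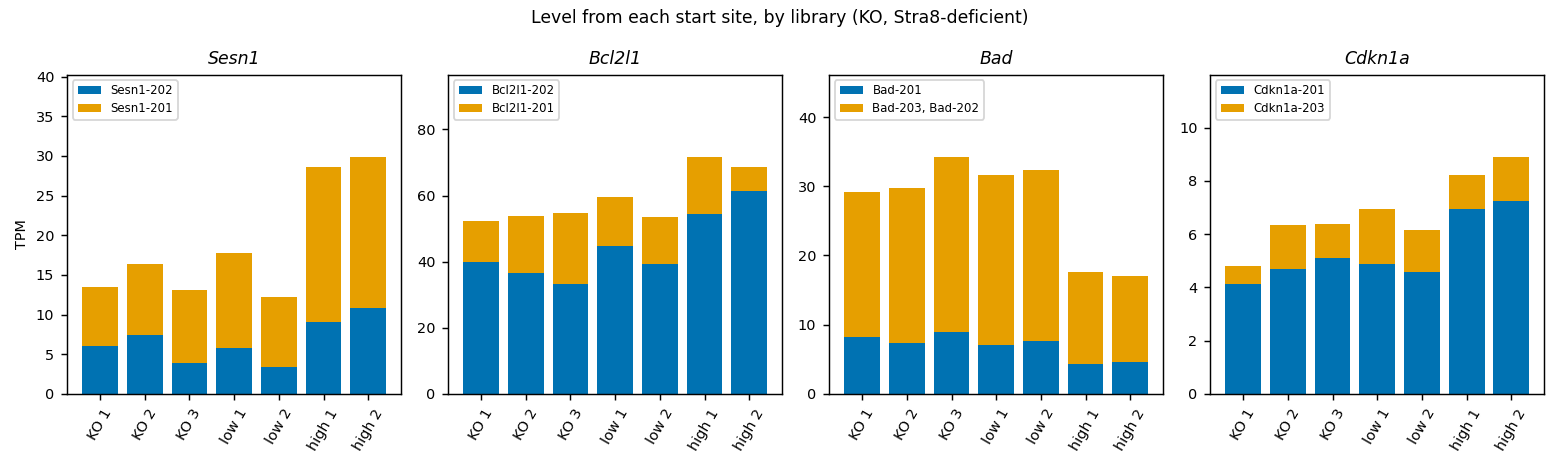
Level (TPM, stacked bars from 0) of Sesn1, Bcl2l1, Bad and Cdkn1a from each annotated start site in the 7 RNA-seq libraries (KO, Stra8-deficient); colors are transcripts that share a start. Both Sesn1 starts are highest in the high-STRA8 libraries, Bad is lowest there at both starts, and Bcl2l1 is read mostly from Bcl2l1-202.

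STRA8-FLAG was bound at the promoters of 6 of the 34 members, 17.6%, where 13.2% of all 21618 protein-coding genes were bound. All 6 were among the 28 tested members (21.4%), where 22.4% of the genes tested by RNA-seq were bound, so that the share among members was near the background. Bound here means that a summit, the point of highest signal in a called peak, lay within 1 kb of a TSS in at least 2 of the 3 FLAG/FLAG libraries and in no wild-type library. The bound members were Trp53, Mdm2, Trp53inp1, Bcl2l1, Mcl1 and Apaf1. No wild-type library had a summit at any of the 34 members. Of the bound members, Bcl2l1 and Apaf1 were higher and Trp53 was lower in high-STRA8 cells than in Stra8-deficient ones, and 3 were not called. Among all bound tested genes, 47.6% were called higher and 5.69% lower. Of the 13 members that were lower, 12 were not bound, as were 93% of all genes called lower. Without FLAG/FLAG replicate 1 or replicate 2, 3 members were bound.

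Mcl1 held the strongest single summit, with scores (-log10 p) of 37.5, 8.04 and 12.1 in FLAG/FLAG replicates 1, 2 and 3, at 55, 19 and 22 bp downstream of its nearest TSS. Bcl2l1 had a summit in all 3 libraries as well, with scores of 24.7, 20.2 and 21.7 at 23, 107 and 42 bp downstream of the start at chr2:152831728, which is the start that gave the smaller part of its RNA. Trp53 had scores of 24.8, 16.2 and 11.8, but at -965, -906 and -932 bp from its TSS, where a negative distance is upstream. The same summits lay at -70, -129 and -103 bp from the TSS of Wrap53, the neighbor on the other strand that encodes a protein of Cajal bodies and telomerase. Wrap53 was at 34.7 to 37.5 TPM in Stra8-deficient, 48.7 and 42.7 TPM in low-STRA8 and 47.9 and 49.1 TPM in high-STRA8 cells. From Stra8-deficient to high-STRA8 cells it rose by 0.49 on the log2 scale (edgeR adjusted p = 0.0077), against the decrease of Trp53. It was already higher in low-STRA8 cells (log2 0.53, adjusted p = 0.0106). Between high- and low-STRA8 cells, where Trp53 fell, Wrap53 did not pass (log2 -0.04, adjusted p = 0.824). Within 500 bp of a TSS, Trp53 was not bound.

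Mdm2 had 2 summits in replicate 1, with a score of 18.4 at 532 bp and of 9.36 at -61 bp from its TSS, and 1 in replicate 2 with a score of 7.83 at 98 bp. Trp53inp1 had scores of 14.7 and 11.6 in replicates 1 and 2, at 9 and -25 bp from its TSS. Apaf1 had scores of 12.6 and 11.8 in the same libraries, at 112 and -55 bp from its nearest TSS. The same summits lay farther from the TSS of Ikbip, at -390 and -456 bp. The level of Ikbip did not pass the test (log2 -0.42, edgeR adjusted p = 0.266). These 3 genes had no summit in replicate 3, the library with the fewest summits (2035 against 5687 and 3299) and the one made with another kit. Another 5 members had a summit in 1 FLAG/FLAG library: Mdm4, Sesn1, Phlda3, Bid and Bcl2. Just outside the window, Cdkn1a had summits 1962 and 1909 bp from its nearest TSS in replicates 1 and 2, and just inside it were the Trp53 summits at -965 and -932 bp. The other 22 members had none within 1 kb.

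**Figure D4:**
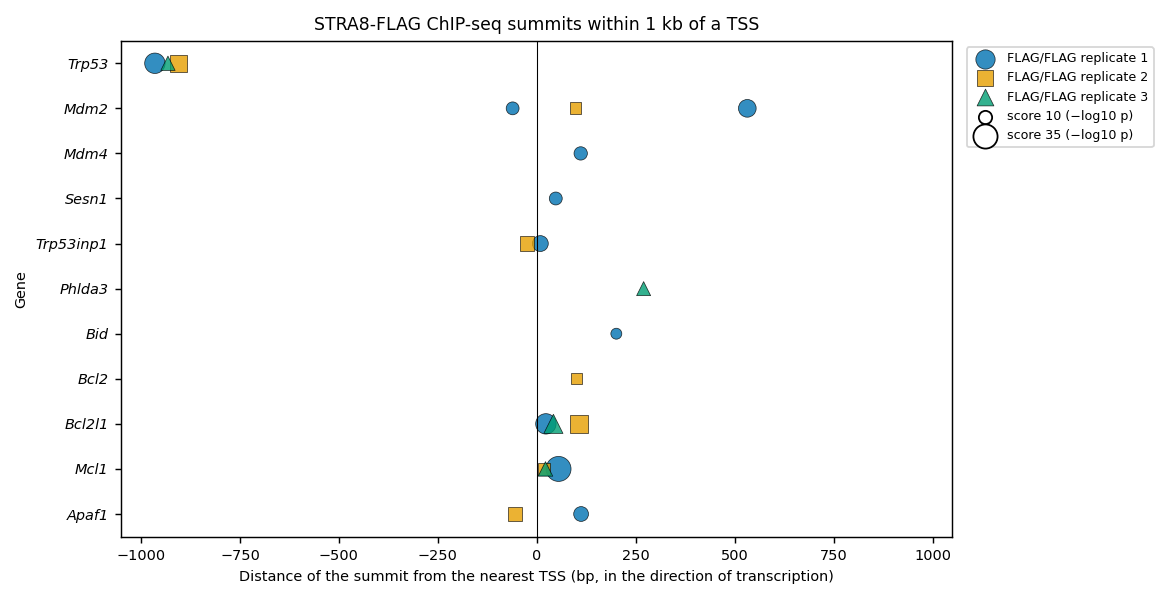
Distance (bp) of each STRA8-FLAG summit from the nearest TSS for the 11 members with a summit within 1 kb in any FLAG/FLAG library; color and shape give the library and area rises with the score (-log10 p). Summits of Bcl2l1 and Mcl1 lie within 107 bp of the TSS in all 3 libraries, while those of Trp53 lie at -965 to -906 bp.

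The sequences under the strongest summit of each bound member are shown, since they are where STRA8 was found, with 100 bases around the summit or, where the window meets an annotated UTR, 30 bases; each is on its gene's strand (RefSeq genome GRCm38.p6). Capitals mark a match to CNCCTCAG, the sequence named for STRA8-bound promoters, searched on both strands.
Trp53, chr11:69579344-69579443, plus: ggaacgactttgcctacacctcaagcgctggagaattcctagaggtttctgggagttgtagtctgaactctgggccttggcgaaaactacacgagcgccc
Mdm2, chr10:117710176-117710275, minus: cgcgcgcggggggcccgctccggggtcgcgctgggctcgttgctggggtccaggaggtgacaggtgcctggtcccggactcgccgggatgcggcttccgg
Trp53inp1, chr4:11156425-11156454, plus: gttcccagagctgcacaacaacaaaaggac
Bcl2l1, chr2:152831690-152831719, minus: cgggctcgcgcgcgctgccgcggcaccgga
Mcl1, chr3:95658862-95658961, plus: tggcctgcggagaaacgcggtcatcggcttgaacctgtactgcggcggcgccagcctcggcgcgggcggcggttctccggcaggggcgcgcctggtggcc
Apaf1, chr10:91082535-91082564, minus: agcggctttccgagcggcgtccgcttcccg
None of the 6 held a match, nor did 100 bp around them. Mcl1 held a match in the 100 bp around its summits of replicates 2 and 3.
Mcl1, chr3:95658822-95658851, plus: ccccgctccttCCCCTCAGcctgcggcgtc
Over all summits of a library, 9.65%, 13.9% and 15.5% in replicates 1, 2 and 3 held a match in 100 bp. In the 2 kb around the TSS, 14 of 34 members held a match (41.2%), where 43.0% of all genes, 46.3% of tested genes and 61.6% of bound genes did.

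Other genes of these pathways were called in both directions. Of 111 listed genes found in the tables, 85 were tested, and 20 rose and 13 fell from Stra8-deficient to high-STRA8 cells (edgeR). That is 23.5% and 15.3%, where 18.8% and 18.2% of all tested genes did so. The lists were made by name, with earlier results of these data known. Regulators of p53 had 6 higher and 5 lower of 22. Chek1, a checkpoint kinase that acts when replication stalls, was at 38.4 to 62.7 TPM in Stra8-deficient and 172 and 160 TPM in high-STRA8 cells (log2 2.08, adjusted p = 0.000195), and Atm, the kinase that answers double-strand breaks, rose by 1.53 on the log2 scale (adjusted p = 0.000647). Ppm1d, a phosphatase that turns p53 signaling off, was lower (log2 -0.67, adjusted p = 0.00345), as was the histone methyltransferase gene Kmt5a (log2 -0.79, adjusted p = 0.000579).

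Other p53 targets had 5 higher and 5 lower of 29. Ddb2, which recognizes damaged DNA for excision repair, went from 30.4 to 37.2 TPM in Stra8-deficient cells through 84.9 and 57.4 TPM in low-STRA8 to 171 and 197 TPM in high-STRA8 cells (log2 2.67 against Stra8-deficient, edgeR adjusted p = 5.47e-05). Trim32 also rose (log2 1.34, adjusted p = 0.000559), while Trp53i11 (log2 -1.57, adjusted p = 0.000663) and the excision repair gene Xpc (log2 -0.78, adjusted p = 0.00161) fell. Among the other caspases, inhibitors and mitochondrial proteins, 5 of 16 were higher and 0 lower, where 18.8% and 18.2% of all tested genes were. Casp2 rose by 0.69 on the log2 scale (adjusted p = 0.00112). Chek1, Ddb2 and Ripk1 (below) were bound by STRA8-FLAG, as were 22.4% of all genes tested by RNA-seq. The other genes of these lists named in the text were not bound.

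Other BCL2 family genes had 1 higher and 1 lower of 9, which were Bnip3 (log2 0.35, edgeR adjusted p = 0.0358) and the BH3-only gene Bmf (log2 -1.55, adjusted p = 0.000592). Bmf was at 4.75 to 5.40 TPM in Stra8-deficient and 1.51 and 2.03 TPM in high-STRA8 cells, the direction of the BH3-only members. Death receptor genes had 3 higher and 2 lower of 10. Ripk1 (log2 1.10, adjusted p = 0.00723) and the adaptor Fadd (log2 0.68, adjusted p = 0.0133) were higher, and the adaptors Cradd (log2 -1.04, adjusted p = 0.0234) and Tradd (log2 -0.70, adjusted p = 0.0256) were lower.

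**Figure D5:**
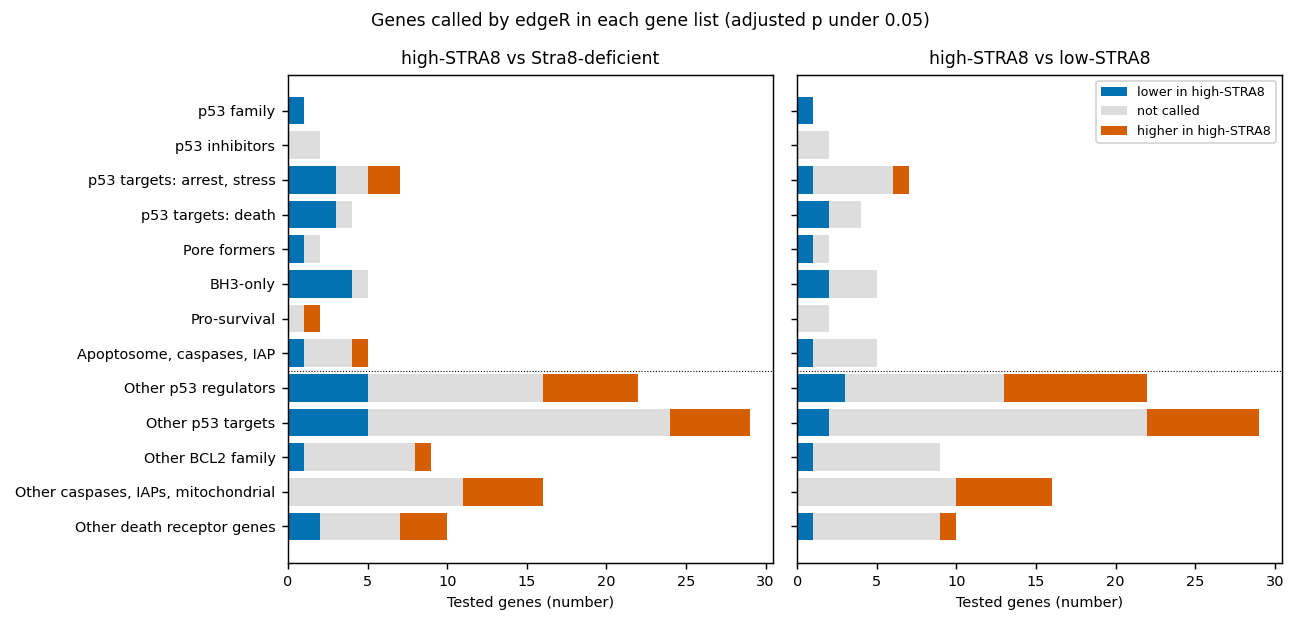
Number of tested genes called lower (blue), not called (gray) or called higher (orange) in high-STRA8 cells by edgeR, against Stra8-deficient (left) and low-STRA8 cells (right), for the 8 groups of members (above the dotted line) and the 5 lists of other pathway genes (below it). BH3-only members hold 4 lower of 5 on the left, and the other caspases, inhibitors and mitochondrial genes hold 5 higher of 16. In that comparison 18.2% of all tested genes were lower and 18.8% higher.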

How the data were processed

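RNA-seq covered 7 libraries of sorted preleptotene cells and ChIP-seq 6 libraries of whole synchronized testes; the input libraries were not analysed here. The authors made estimated counts, effective lengths and TPM per transcript with kallisto 0.43.0 from stranded, poly-A selected RNA, and the deposited tables also hold TPM per gene and normalized counts (a signal from DESeq2 1.18.1). The deposited ChIP summits, with a score of −log10 p, were called by the authors in each library, against its input chromatin, on mm10 with Bowtie 1.2.0 and MACS2 2.1.1.20160309, per the labels' processing notes and the study's methods.

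Estimated counts were summed by gene and rounded. Of 12545 genes above 1 TPM in at least 1 library, 16 could not be joined to the annotation and were left out, and 12529 were fitted in one model of the 3 groups with edgeR 4.0.16 in R 4.3.3 (TMM, robust quasi-likelihood, Benjamini-Hochberg adjustment over all genes, threshold 0.05). A library held 25049625 to 30015072 estimated counts, the common biological coefficient of variation was 0.173 and 4 residual degrees of freedom remained. The script was tested on simulated data. limma 3.58.1 on log2 values (pseudocount 1 or 0.1) and DESeq2 1.42.0 were alternatives. A promoter was bound if a summit lay within 1 kb of a TSS in at least 2 of 3 FLAG/FLAG libraries and in no wild-type library. The p53 response element search was added after the data were seen.

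The members and the lists of other pathway genes were chosen with earlier results of these data known. All members are described, and other pathway genes are named where they had the smallest adjusted p in each direction, up to 2 a list, between high-STRA8 and Stra8-deficient cells. One such gene is not reported here.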

Additional observations from a re-analysis of the deposited data

How the results depend on the processing

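No called member changed direction under any alternative. Of the values of called members recomputed under alternatives, 389 stayed past the threshold and 70 did not. For high-STRA8 against Stra8-deficient cells (4 higher, 13 lower), leaving out 1 library at a time gave 2 to 5 higher and 4 to 13 lower. For high- against low-STRA8 cells (1 higher, 8 lower) it gave 0 to 3 higher and 3 to 9 lower, and the higher count was 2 with DESeq2 and with limma on TPM at either pseudocount, and 3 with the 2 compared groups only. For low-STRA8 against Stra8-deficient cells (0 higher, 1 lower), leaving out 1 library gave 0 to 1 higher and 0 to 5 lower; DESeq2 gave 1 higher and 2 lower, limma on TPM 7 lower, and limma on normalized counts or the 2 groups only 0 lower. In this last comparison limma on TPM called 2707 and 2729 of all 12529 tested genes lower at pseudocounts of 1 and 0.1. A fit with only 1 library in a group assumes that it varies like the others.

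The RNA replicate numbers are not stated to pair libraries, and same-numbered libraries did not deviate together (correlations of -0.17 to -0.03). With the replicate number as a block, the counts were 2 higher and 8 lower for high-STRA8 against Stra8-deficient cells, 3 and 9 against low-STRA8 cells and 0 and 5 for low-STRA8 against Stra8-deficient cells, and 1 bound member was higher. With the low-STRA8 numbers exchanged, a block chosen after seeing the data, they were 4 and 10, 3 and 9, and 0 and 5.

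The 6 bound members became 11 with a summit in at least 1 library, 3 with a summit in all 3 and 3 to 6 with 1 FLAG/FLAG library left out. Bound members called higher (2) were 1 with a summit in all 3 libraries and 1 to 3 with 1 library left out. Bound members called lower (1) were 0 within 500 bp and 3 with a summit in at least 1 library. The causes of these changes were not tested. The smallest difference that 2 libraries in a group could show was not measured.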
